A study of Homo sapiens with 6 samples.

Results

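Immediate early genes are switched on within minutes of a growth factor or stress signal, without new protein synthesis. The 10 studied here were FOS, FOSB, JUN, JUNB, JUND, EGR1, EGR2, EGR3, IER2 and NR4A1. They were taken by symbol from the 60651 gene identifiers of the count data, by a rule that uses no measured value. The list of symbols itself was chosen with earlier results of these data known. All 10 had enough counts to be tested. The question was how these genes behaved when the oncogene MYCN was switched on in neuroblastoma cells that lack its amplification.

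The cultures were of SK-N-AS, an established line of human neuroblastoma cells, which here carried MYCN under a tetracycline repressor. The cells were kept as single clones (which clone each library came from is not given in the sources used here), and all cultures, controls included, carried the repressor system and were kept under 500 µg/ml G418 and 5 µg/ml blasticidin. The control group held 3 libraries whose titles name ETOH and 120 h. The MYCN-induced group held 3 libraries from cells given tetracycline, also for 120 h (5 days). Ribosomal RNA was depleted from total RNA before sequencing, and no library here came from cells given tetracycline without the MYCN construct, so the drug and MYCN cannot be told apart. The study calls its replicates independent experiments. Each library is a bulk culture, in which a change of RNA per cell and a change in the number of cells that express a gene cannot be told apart. The cells' own NRAS gene carries a point mutation, as the study's methods state. RAS acts upstream of the ERK kinases that switch on immediate early genes.

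The libraries held 64500589 to 102249336 counted read pairs. MYCN itself was at 30.3, 35.5 and 32.4 CPM (counts scaled to the size of the library, by the TMM method) in the controls and at 211, 221 and 199 CPM in the induced libraries (log2 fold change 2.68, standard error 0.08, adjusted p = 4.155e-05, edgeR). The labels and the MYCN level therefore matched in all 6 libraries. On the first principal component MYCN-induced replicate 3 was at 69.1, and its group at 14.4 and 13.1 otherwise. Of the adrenergic neuroblastoma markers, HAND2 and GATA3 had means of 200 to 216 and 58.4 to 63.0 TPM (the share of transcripts, scaled for gene length) over both groups. TH was at 0.549 and 0.369 TPM. Of the mesenchymal markers, CD44 had 0 counts in every library, whereas VIM had means of 116 and 142 TPM. The summed level of the adrenergic markers ran from 518 to 658 TPM in controls and from 486 to 637 TPM in induced libraries. That of the mesenchymal markers ran from 186 to 200 TPM and from 177 to 240 TPM. Of 12 markers of blood, vessel, epithelial and glial cells, 5 were too low to be tested, CD3E was at 0, and the summed level of the 12 ran from 4.72 to 5.64 TPM in controls and from 4.47 to 4.94 TPM in induced libraries.

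The products of these genes are mostly transcription factors. FOS and JUN proteins pair through a leucine zipper to form AP-1, which binds DNA at sites called TRE. JUN proteins can also pair with each other, whereas FOS proteins need a partner. EGR1, EGR2 and EGR3 are zinc finger factors that bind GC-rich sites, NR4A1 is an orphan nuclear receptor, and IER2 is a small nuclear protein. Activated ERK phosphorylates factors of the ELK group, which sit with the serum response factor SRF on a motif called the CArG box near the start of many of these genes. The messenger RNAs are unstable, so a steady level after several days reflects ongoing transcription and decay more than the first burst.

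The promoters of 4 genes are shown because these genes differed in how they behaved: EGR1 passed the test, EGR2 and JUNB did not although their p before adjustment was under 0.05, and FOS split between induced libraries. The 250 bases before the start site were read from RefSeq on GRCh38.p14, 5′ to 3′ on the strand of the gene. Capitals mark CArG boxes and the TATA box sequence TATAAA. The windows lie at chr5:138465229-138465478 (plus strand) for EGR1, chr10:62816367-62816616 (minus strand) for EGR2, chr14:75278578-75278827 (plus strand) for FOS and chr19:12791236-12791485 (plus strand) for JUNB.
EGR1: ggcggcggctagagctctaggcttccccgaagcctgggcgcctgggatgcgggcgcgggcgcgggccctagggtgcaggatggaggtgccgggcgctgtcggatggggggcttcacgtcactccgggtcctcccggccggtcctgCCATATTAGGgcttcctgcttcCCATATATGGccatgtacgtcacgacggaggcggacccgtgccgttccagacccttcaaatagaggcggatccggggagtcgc
EGR2: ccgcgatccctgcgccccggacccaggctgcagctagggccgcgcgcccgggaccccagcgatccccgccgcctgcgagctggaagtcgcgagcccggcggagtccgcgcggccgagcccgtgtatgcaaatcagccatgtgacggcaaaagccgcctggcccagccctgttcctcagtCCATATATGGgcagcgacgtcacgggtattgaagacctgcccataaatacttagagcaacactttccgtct
FOS: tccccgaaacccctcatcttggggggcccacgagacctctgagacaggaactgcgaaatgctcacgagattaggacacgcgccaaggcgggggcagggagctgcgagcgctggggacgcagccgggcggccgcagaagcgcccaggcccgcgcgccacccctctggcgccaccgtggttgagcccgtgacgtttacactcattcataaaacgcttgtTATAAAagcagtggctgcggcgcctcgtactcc
JUNB: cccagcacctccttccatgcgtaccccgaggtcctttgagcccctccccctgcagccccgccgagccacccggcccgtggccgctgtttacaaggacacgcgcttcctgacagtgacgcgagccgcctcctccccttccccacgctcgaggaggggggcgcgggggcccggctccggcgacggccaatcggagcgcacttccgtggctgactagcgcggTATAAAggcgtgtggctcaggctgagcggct
The EGR1 window held 2 CArG boxes, CCATATTAGG at 105 to 96 and CCATATATGG at 83 to 74 bases before the start. EGR2 has several windows, and the one shown was picked because it holds a CArG box, CCATATATGG at 71 to 62 bases. Of 35116 promoter windows searched on both strands over the same length, 1.16% held a CArG box. The FOS and JUNB windows held TATAAA at 33 to 28 and at 31 to 26 bases before the start, as 10.7% of windows did. Neither held a CArG box within the 250 bases. Bases further upstream were not searched, so a CArG box there would have been missed. RefSeq windows were found for 9 of the 10 genes (12 windows, since some genes have several starts, as EGR2 does). EGR3 had no window and was therefore not searched for any of these motifs. A gene was counted if any of its windows held the motif, whereas the percentages are of single windows, so the 2 are not on the same footing. A CArG box was in windows of 2 of the 9 genes (EGR1 and EGR2) and TATAAA in 3 (FOS, FOSB and JUNB). The ETS site CCGGAA was in 3 (FOSB, IER2 and NR4A1) against 14.5% of all windows, and the full CRE TGACGTCA in 1 (JUND) against 1.65%. The EGR site GCGNGGGCG was in 1 (EGR1) against 8.41%, the E-box CACGTG in 1 (another start of EGR2) against 6.34%, and the TRE TGANTCA in 0 against 6.57%.

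Of the 10 genes, 2 (EGR1 and EGR3) passed as higher after MYCN induction, with an adjusted p under 0.05, and 0 were lower. Over all 29086 tested genes, 1.02% were higher and 2.38% lower by the same rule. At an unadjusted p under 0.05, 6 of the 10 were higher (EGR1, EGR2, EGR3, JUN, JUNB and IER2) and 0 lower, against 8.13% and 10.6% of all tested genes. The groups did not overlap, with induced values above, for 3 of the 10 (EGR1, EGR2 and EGR3) against 11.5% of all genes, and with induced values below for 0 against 14.7%. The log2 fold change was above 0 for 9 of the 10, against 49.9% of all genes, and its median was 0.49 against -0.00038. Without MYCN-induced replicate 3 it was above 0 for 7 of the 10, with FOS (-0.32), FOSB (-0.41) and JUND (-0.24) below. These 10 genes share regulators and are not independent of each other, and they were chosen with earlier results of these data known.

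**Figure D1:**
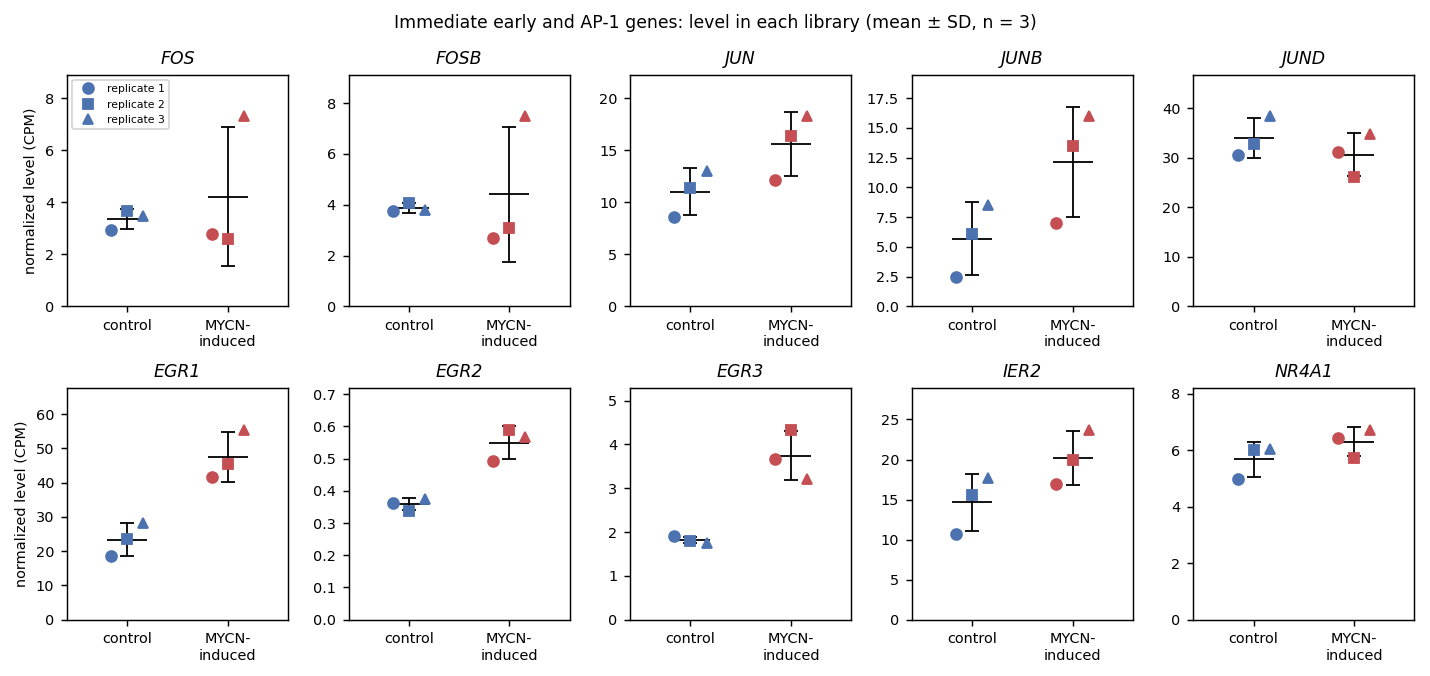
Level of each of the 10 genes in every library, in CPM normalized by TMM on linear axes that start at 0, with control libraries in blue, MYCN-induced libraries in red, 1 marker shape per replicate number and bars for the mean ± SD (n = 3). EGR1, EGR2 and EGR3 were higher in every induced library than in any control, while for FOS and FOSB only MYCN-induced replicate 3 lay above the controls.

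The EGR genes were the only ones of the 10 whose groups did not overlap. EGR1 (ENSG00000120738.8, chromosome 5 from 138465479 to 138469303, plus strand), a zinc finger factor that responds to many growth factors, was at 18.7, 23.4 and 28.1 CPM in controls and at 41.5, 45.5 and 55.5 CPM in induced libraries. The lowest induced value was thus well above the highest control. The means were 23.4 ± 4.74 CPM for controls and 47.5 ± 7.19 CPM for induced libraries (SD, n = 3). This gave a log2 fold change of 1.02 with a standard error of 0.16 (95% interval 0.64 to 1.40, adjusted p = 0.0208, edgeR).
EGR3 (ENSG00000179388.9) is a related factor that growth factor and calcium signals induce. Its controls lay close together at 1.90, 1.79 and 1.76 CPM, and the induced libraries were at 3.67, 4.34 and 3.22 CPM. The log2 fold change was 1.04 (standard error 0.14, 95% interval 0.71 to 1.37, adjusted p = 0.0122, edgeR). An antisense gene, ENSG00000253125, shares 164 of its exon bases (3.26%) and had at most 5.5 counts. EGR2 (ENSG00000122877.16, chromosome 10, minus strand), which Schwann cells need to form myelin, was scarce, with 30 to 55 counts per library. It was at 0.363, 0.338 and 0.375 CPM in controls and at 0.493, 0.590 and 0.566 CPM in induced libraries. The groups did not overlap, but at 30 counts the counting error alone is 18.3%, and the log2 fold change of 0.62 (standard error 0.18, 95% interval 0.20 to 1.04) did not pass (adjusted p = 0.119, edgeR). EGR4, the remaining relative, had too few counts to be tested.
The calls of EGR1 and EGR3 were each lost in 4 of the 6 fits that left out 1 library. Without control replicates 1 or 2 or MYCN-induced replicates 1 or 2, the adjusted p of EGR1 from edgeR was 0.0651, 0.120, 0.0601 and 0.0543, and without control replicates 1, 2 or 3 or MYCN-induced replicate 1 that of EGR3 was 0.0539, 0.0946, 0.0777 and 0.0512. EGR1 still passed without control replicate 3 (adjusted p = 0.0416) or MYCN-induced replicate 3 (adjusted p = 0.0234), and EGR3 without MYCN-induced replicate 2 (adjusted p = 0.0346) or 3 (adjusted p = 0.00396, edgeR). Their log2 fold changes over all alternatives stayed between 0.88 and 1.17 for EGR1 and between 0.92 and 1.15 for EGR3.

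**Figure D2:**
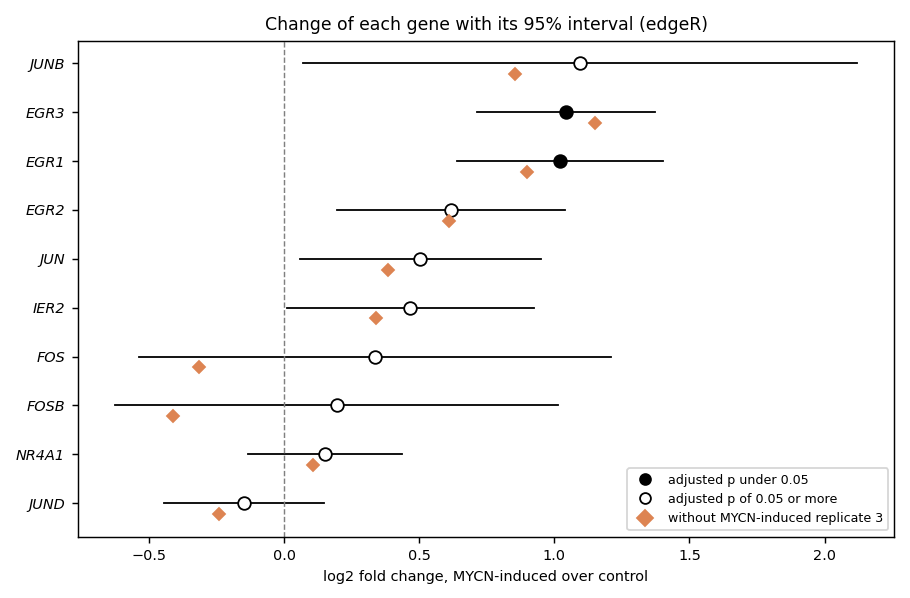
Log2 fold change of each gene, MYCN-induced over control, with its 95% interval from edgeR (lines), filled circles where the adjusted p was under 0.05 and diamonds for the value without MYCN-induced replicate 3. EGR1 and EGR3 are the filled circles, JUNB has the widest interval, and the diamonds of FOS and FOSB lie on the other side of 0 from their circles.

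The JUN genes encode the AP-1 subunits that bind DNA both as JUN-JUN and as FOS-JUN pairs. JUNB (ENSG00000171223.6, chromosome 19 from 12791486 to 12793315, plus strand), often a weaker activator than JUN, varied most of the 10 among controls. It was at 2.48, 6.09 and 8.52 CPM in controls and at 7.03, 13.5 and 15.97 CPM in induced libraries. The lowest induced library lay below the highest control, so the groups overlapped. The log2 fold change of 1.096 was the largest of the 10 genes, but its standard error was 0.44 and its 95% interval ran from 0.07 to 2.12 (adjusted p = 0.237, edgeR). Without control replicate 1 it was 0.73, and without MYCN-induced replicate 3 it was 0.86. JUN (ENSG00000177606.8, chromosome 1 from 58776845 to 58784048, minus strand), the first described AP-1 subunit, was at 8.59, 11.4 and 13.0 CPM in controls and at 12.2, 16.4 and 18.2 CPM in induced libraries. MYCN-induced replicate 1 lay among the controls, and the log2 fold change of 0.50 (standard error 0.19, 95% interval 0.06 to 0.95) did not pass (adjusted p = 0.211, edgeR). JUND (ENSG00000130522.6, chromosome 19 from 18279694 to 18281622, minus strand) is the JUN gene that cells keep on without stimulation. Its level was 30.6, 32.8 and 38.4 CPM in controls and 31.1, 26.1 and 34.7 CPM in induced libraries. The groups overlapped, and the log2 fold change was -0.15 (standard error 0.13, 95% interval -0.44 to 0.15, adjusted p = 0.599, edgeR). JUNB shares 259 exon bases (14.2% of its own) with HOOK2 on the opposite strand, and by the file header counting used no strand, in which case reads of the shared bases cannot be told apart.

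The FOS genes encode the partners of JUN. FOS (ENSG00000170345.10, chromosome 14 from 75278826 to 75282230, plus strand) was at 2.93, 3.68 and 3.46 CPM in controls. In induced libraries it was at 2.77, 2.60 and 7.31 CPM, so that MYCN-induced replicates 1 and 2 lay below every control and replicate 3 above all of them. FOSB (ENSG00000125740.14, chromosome 19 from 45467995 to 45475179, plus strand), its nearest relative here, had the same arrangement, with 3.73, 4.08 and 3.80 CPM in controls and 2.68, 3.09 and 7.48 CPM in induced libraries. The log2 fold changes were 0.34 for FOS (standard error 0.38, 95% interval -0.54 to 1.21, adjusted p = 0.696) and 0.19 for FOSB (standard error 0.35, 95% interval -0.63 to 1.01, adjusted p = 0.826), both from edgeR. Without MYCN-induced replicate 3 both changed sign, to -0.32 (adjusted p = 0.206) and -0.41 (adjusted p = 0.0761, edgeR). The ratio of FOSB to FOS on the TPM scale was 0.731, 0.637 and 0.629 in controls and 0.555, 0.683 and 0.587 in induced libraries, overlapping between groups (two-sided exact permutation test, p = 0.3, where 3 against 3 cannot give less than 0.1).

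IER2 and NR4A1 belong to neither family. IER2 (ENSG00000160888.7, chromosome 19 from 13150411 to 13154911, plus strand) was at 10.6, 15.6 and 17.7 CPM in controls and at 17.0, 19.9 and 23.7 CPM in induced libraries. MYCN-induced replicate 1 lay below the highest control, and the log2 fold change of 0.47 (standard error 0.20, 95% interval 0.01 to 0.92) did not pass (adjusted p = 0.257, edgeR). Without control replicate 1 it was 0.28. Antisense genes share many of its exon bases, 946 (30.7%) with ENSG00000267598 and 662 (21.5%) with ENSG00000287296, which makes its counts uncertain if strand was not used. NR4A1 (ENSG00000123358.20, chromosome 12 from 52022832 to 52059507, plus strand) shares 754 bases with the antisense NR4A1AS. It was at 4.97, 6.00 and 6.04 CPM in controls and 6.44, 5.73 and 6.72 CPM in induced libraries. These overlapped, and the log2 fold change was 0.15 (standard error 0.12, 95% interval -0.13 to 0.44, adjusted p = 0.575, edgeR).

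The spread between libraries was itself shared by several of the 10 genes. Control replicate 1 was the lowest control for 8 of the 10 genes, and for 33.3% of all tested genes. MYCN-induced replicate 1 was the lowest induced library for 6 of the 10 against 26.7% of all genes, and MYCN-induced replicate 3 the highest for 8 of the 10 against 38.7%. JUNB spanned 3.43-fold among controls, a wider range than 99.8% of the 18535 tested genes with a mean of at least 1 CPM. IER2 spanned 1.66-fold (wider than 94.9%), JUN 1.52-fold (92.4%) and EGR1 1.51-fold (92.2%), whereas EGR3 spanned 1.08-fold (32.9%). Among induced libraries FOS and FOSB spanned 2.82-fold and 2.79-fold, each wider than 98.8% of these genes.
GC content moved with part of this. In the fifth of tested genes richest in GC (56.3% or more), the median log2 deviation from the group mean was -0.19 in control replicate 1, against 0.06 and 0.14 in the other controls and -0.06, -0.01 and 0.08 in the induced libraries. JUND (69.9% GC), JUNB (64.9%), IER2 (61.7%), NR4A1 (59.8%) and FOSB (57.6%) belong to the fifth richest in GC, and the other 5 genes to the one below it. The part of GC content in the spread of these genes was not tested. With a correction for GC content, chosen after seeing the data, JUNB had a value of 1.103 (log2, standard error 0.33) with an adjusted p of 0.1004, and IER2 one of 0.47 (standard error 0.12) with 0.0640 (edgeR). EGR1 and EGR3 were then at 1.06 and 1.09, with adjusted p = 0.00955 and 0.00957 (edgeR).

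**Figure D3:**
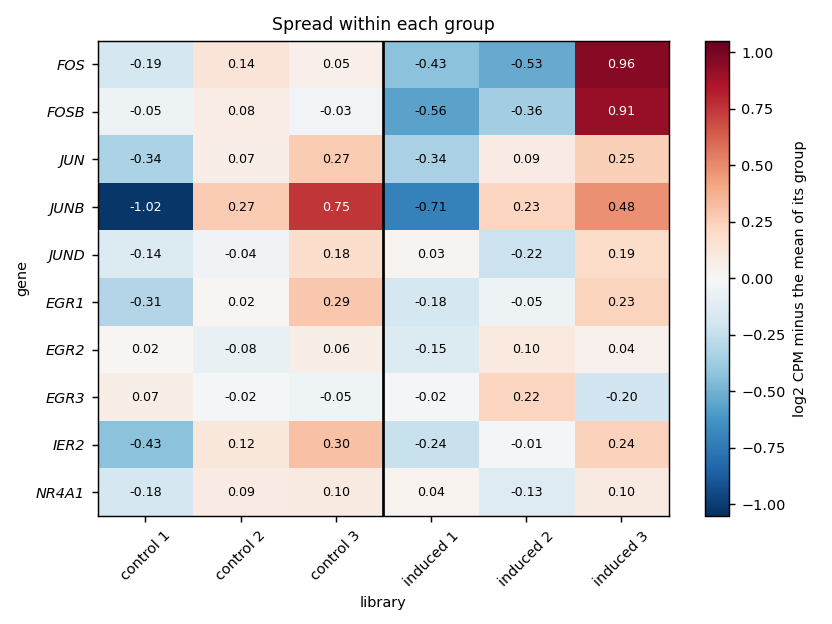
Log2 CPM of each gene in each library minus the mean of its own group, with the value written in each cell (blue below the mean, red above). JUNB is far below its mean in control replicate 1 (-1.02) and in MYCN-induced replicate 1 (-0.71), and FOS and FOSB are 0.96 and 0.91 above theirs in MYCN-induced replicate 3.

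Compared per length, JUND was the most abundant of the 10 genes in control cells, at 28.8 ± 2.06 TPM (SD, n = 3). EGR1 followed at 12.2 ± 1.87, IER2 at 7.74 ± 1.57, JUNB at 5.02 ± 2.49 and JUN at 4.95 ± 0.779 TPM. FOS was at 1.72 ± 0.146, NR4A1 at 1.27 ± 0.0843, FOSB at 1.14 ± 0.0668, EGR3 at 0.593 ± 0.0556 and EGR2 at 0.160 ± 0.0103 TPM. In this order IER2 and JUNB, JUNB and JUN, and NR4A1 and FOSB had overlapping values, and the other neighbours did not. In MYCN-induced cells EGR1, at 24.7 ± 2.18 TPM, overlapped with JUND, at 25.8 ± 1.19 TPM, and EGR3, at 1.24 ± 0.335 TPM, overlapped with FOSB, at 1.25 ± 0.584 TPM.

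Within the JUN family JUND held 81.0%, 72.5% and 70.7% of the summed TPM of JUN, JUNB and JUND in controls and 69.1%, 53.2% and 56.7% in induced libraries. No value overlapped, and the difference in means was -15.0 percentage points (two-sided exact permutation test, p = 0.1, the smallest possible). The share of JUN was 12.1%, 13.4% and 12.8% in controls and 14.4%, 17.8% and 15.8% in induced libraries, a difference of 3.26 points without overlap (exact permutation test, p = 0.1). That of JUNB was 6.93%, 14.2% and 16.5% against 16.5%, 29.0% and 27.5%, with overlap (exact permutation test, p = 0.2). The summed level of the family ran from 33.9 to 44.1 TPM in controls and from 39.2 to 46.5 TPM in induced libraries, and these ranges overlapped. Shares within a family are parts of the same sum, so they move against each other and are not separate results.
The FOS family was led by FOSL1, the FRA1 gene, which together with FOSL2 (FRA2) lacks the strong activation domain of FOS and is transcribed later. FOSL1 held 59.5%, 59.3% and 59.0% of the summed TPM in controls and 69.0%, 68.9% and 67.6% in induced libraries (difference 9.26 points, exact permutation test, p = 0.1). FOS held 10.9%, 11.7% and 12.1% against 6.86%, 6.91% and 7.93%, and FOSB held 7.95%, 7.47% and 7.64% against 3.81%, 4.72% and 4.65%. The share of FOSL2 was 21.7%, 21.5% and 21.3% against 20.3%, 19.4% and 19.8%, a difference of -1.62 points. None of these shares overlapped between groups, including in MYCN-induced replicate 3. There the summed level was 41.1 TPM against 21.3 and 21.6 in the other induced libraries and 14.0 to 16.1 in controls. Here too the shares are not separate results, since a larger share of FOSL1 leaves less for the other genes. With counts not divided by length the FOSL2 difference was 0.03 points, so its direction depends on the scale.
Within the EGR family EGR1 held 94.0% ± 1.32 of the summed TPM in control and 94.3% ± 1.23 in induced cells (SD, n = 3 each; exact permutation test, p = 0.8). EGR3 held 4.69% ± 1.10 and 4.73% ± 1.11 (exact permutation test, p = 1). In these 6 libraries the ratio of EGR3 to EGR1 ran from 0.0388 to 0.0634 in controls and from 0.0362 to 0.0594 in induced cells. Against IER2, EGR1 was 1.72, 1.47 and 1.56 times as abundant in controls and 2.40, 2.24 and 2.29 times in induced libraries, without overlap (exact permutation test, p = 0.1). Against FOS it was 6.47, 6.47 and 8.26 times as abundant in controls. In induced libraries the ratio to FOS was 15.2, 17.8 and 7.71, with overlap (exact permutation test, p = 0.2).
Among the NR4A receptors NR4A1 held 52.9%, 57.5% and 57.6% of the summed TPM in controls and 51.8%, 48.8% and 48.0% in induced libraries, without overlap (exact permutation test, p = 0.1). The remainder was NR4A2 and NR4A3, and the family as a whole ran from 2.23 to 2.34 TPM in controls and from 2.72 to 2.95 TPM in induced libraries.

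**Figure D4:**
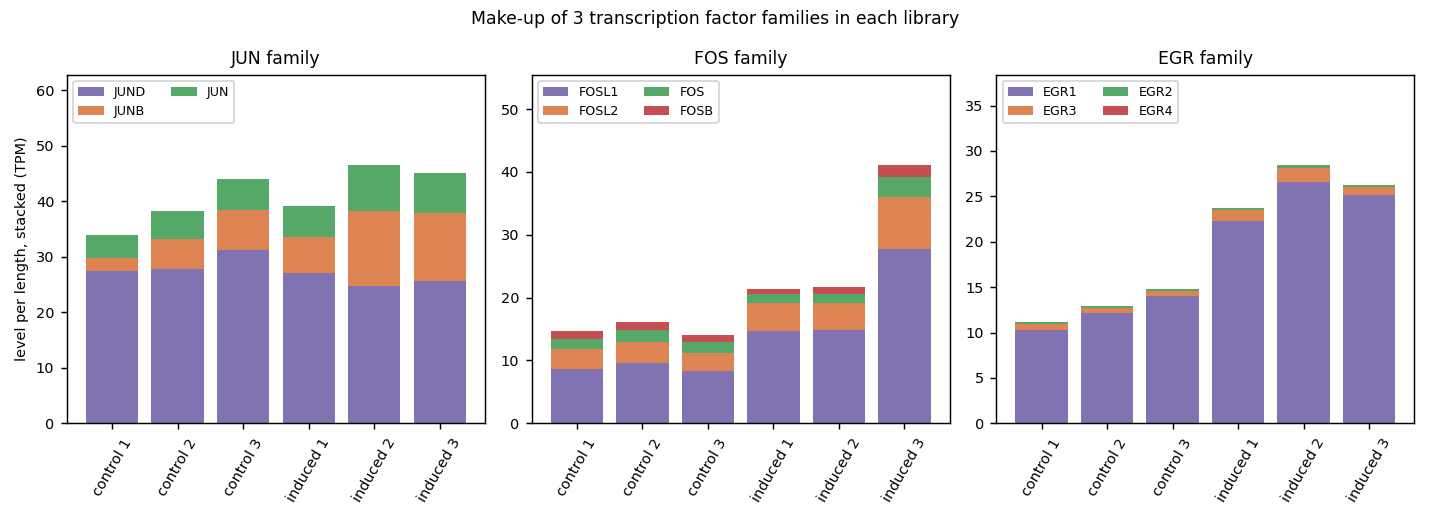
Stacked levels per length (TPM, linear axis from 0) of the JUN, FOS and EGR family genes in each library. The JUND part was 24.8 to 31.2 TPM in all 6 libraries and the JUNB part 2.35 to 7.29 TPM in controls and 6.45 to 13.5 TPM in induced libraries, the FOS family bar of MYCN-induced replicate 3 reached 41.1 TPM, and the EGR bars were almost wholly EGR1.

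The surrounding pathway was read from 6 lists. Over all tested genes, edgeR called 1.02% higher and 2.38% lower, and DESeq2 3.11% and 4.12%. At an unadjusted p under 0.05 (edgeR), 8.13% were higher and 10.6% lower. Of 16 further AP-1 and bZIP partners, 12 were tested and 0 passed in either direction (edgeR). At an unadjusted p under 0.05, 4 were higher and 0 lower, while DESeq2 called 2 higher and 0 lower. The median log2 fold change was 0.32. FOSL1 (1.18, adjusted p = 0.0964, edgeR) was at 9.49, 11.02 and 9.96 CPM in controls and at 16.5, 15.3 and 36.9 CPM in induced libraries, without overlap. Without MYCN-induced replicate 3 its log2 fold change was 0.66 with an adjusted p of 0.0119 (edgeR), smaller in size and past the threshold. MAFG, a small MAF protein, was at 0.41 (adjusted p = 0.295) and at 0.14 without MYCN-induced replicate 3 (adjusted p = 0.359), and ATF2, a partner of JUN, at -0.14 (adjusted p = 0.344, edgeR).
Of 29 further immediate early genes, 26 were tested. At an unadjusted p under 0.05 (edgeR), 12 were higher and 4 lower, against 8.13% and 10.6% of all tested genes. DESeq2 called 5 higher and 3 lower, against 3.11% and 4.12%. By adjusted p in edgeR 3 were higher and 3 lower, with a median of 0.26 over the list. The higher ones were the kinase genes SGK1 (0.58, adjusted p = 0.0144) and SIK1 (1.17, adjusted p = 0.0256) and ZFP36L2 (0.47, adjusted p = 0.0291), whose product speeds the decay of mRNAs. The lower ones were the antiproliferative gene BTG2 (-1.005, adjusted p = 0.0114), the matricellular gene CCN1 (-0.44, adjusted p = 0.0193) and NFKBIZ, an NF-κB cofactor (-0.72, adjusted p = 0.0412), all from edgeR. BTG2 was at 36.8, 39.0 and 40.3 CPM in controls and at 19.9, 22.5 and 15.4 CPM in induced libraries, so it was lower in 3 of 3. The most abundant genes of the list were MCL1 (0.14, adjusted p = 0.229), ZFP36L1 (-0.15, adjusted p = 0.316) and KLF10 (0.15, adjusted p = 0.490), which did not pass in edgeR. KLF10 was at 0.04 without MYCN-induced replicate 3.

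ERK activity can be followed through genes that it induces and that restrain it. Of 20 such feedback and output genes, 19 were tested. At an unadjusted p under 0.05 (edgeR), 4 were higher and 6 lower, against 8.13% and 10.6% of all tested genes. DESeq2 called 2 higher and 3 lower, against 3.11% and 4.12%. By adjusted p in edgeR 1 was higher and 2 were lower, with a median of -0.04 over the list. SPRY1, a Sprouty inhibitor of receptor signalling, fell from 165 ± 4.32 to 115 ± 4.64 CPM (SD, n = 3 each; log2 fold change -0.53, adjusted p = 0.00751, edgeR). The ETS factor ETV1 was also lower (-0.46, adjusted p = 0.0457) and SPRED1, an inhibitor of RAF activation, was higher (0.37, adjusted p = 0.0421, edgeR). DUSP6, the ERK phosphatase gene often read as a measure of ERK output, was at 271, 272 and 269 CPM in controls and 260, 261 and 242 CPM in induced libraries (-0.09, adjusted p = 0.500, edgeR). CCND1 was at -0.42 (adjusted p = 0.0991) and SPRY2 at -0.04 (adjusted p = 0.886, edgeR). None of these 3 most abundant genes of the list passed in either direction.
Among 15 upstream factors and cofactors, 5 were higher and 0 lower at an unadjusted p under 0.05 (edgeR), against 8.13% and 10.6% of all tested genes. DESeq2 called 3 higher and 0 lower, against 3.11% and 4.12%. By adjusted p in edgeR 2 were higher and 0 lower, with a median of 0.13 over the list. Both were ELK genes, whose products carry the ERK signal to SRF: ELK3 (0.52, adjusted p = 0.0144) was at 45.9, 49.2 and 50.7 CPM in controls and 65.1, 71.4 and 71.9 CPM in induced libraries. ELK1 (0.37, adjusted p = 0.0383, edgeR) was at 53.1, 56.0 and 56.9 CPM against 66.6, 72.4 and 74.8 CPM. NAB2, a corepressor of EGR proteins that EGR1 itself induces, was at 0.34 (adjusted p = 0.108, edgeR). Of 20 genes of the RAS-ERK and JNK cascades, 0 were higher and 1 was lower, MAPK10 (-0.57, adjusted p = 0.0144, edgeR), the JNK gene of neurons. NRAS (0.05) and RPS6KA3 (0.23) did not pass (adjusted p = 0.816 and 0.320, edgeR). RPS6KA3 was at 0.35 without MYCN-induced replicate 3 and then passed (adjusted p = 0.0157, edgeR), and NRAS was then at 0.15 (adjusted p = 0.124, edgeR).
Of 20 AP-1 target genes 17 were tested, 0 were higher and 1 was lower, FN1 (-0.71, adjusted p = 0.0330, edgeR), the fibronectin gene, with a median of 0.29 over the list. At an unadjusted p under 0.05, 8 of these genes were higher and 3 lower, against 8.13% and 10.6% of all tested genes. DESeq2 called 4 higher and 2 lower, against 3.11% and 4.12% of all tested genes. The most abundant, VIM (0.30, adjusted p = 0.0595), TIMP1 (0.49, adjusted p = 0.225) and MMP2 (0.04, adjusted p = 0.817), did not pass in edgeR. VIM was at 0.26 without MYCN-induced replicate 3 and then passed (adjusted p = 0.0254), and TIMP1 was then at 0.24 (adjusted p = 0.266, edgeR). Each gene named in these lists as higher or lower held its call without MYCN-induced replicate 3 (adjusted p from 0.00318 to 0.0272, edgeR). Of the 6 fits that left out 1 library, SPRY1 passed in 5, BTG2 and ELK3 in 3, and SGK1 and MAPK10 in 2. ZFP36L2, SIK1, CCN1, NFKBIZ, SPRED1, ETV1, ELK1 and FN1 passed in only 1 of the 6, that without MYCN-induced replicate 3. The highest adjusted p of a gene over these fits ran from 0.0704 for SPRY1 to 0.230 for SPRED1 (edgeR). Without MYCN-induced replicate 3, edgeR called 2 AP-1 partners higher, 5 ERK feedback and output genes lower, 3 cascade genes higher and 2 lower, and 4 AP-1 target genes higher and 2 lower. Over all 28797 genes tested in that fit 3.68% were higher and 4.44% lower, more than with all libraries.
As for cell identity, of 8 adrenergic neuroblastoma markers 0 were higher and 1 was lower. Their log2 fold change was above 0 for 3 and below 0 for 5, with a median of -0.32. Of 8 mesenchymal markers 7 were tested, 0 were higher and 1 was lower (FN1), with a median of 0.20. Of the 7 tested markers of other cell types 0 passed in edgeR in either direction, also at an unadjusted p under 0.05, with a median of -0.04.

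**Figure D5:**
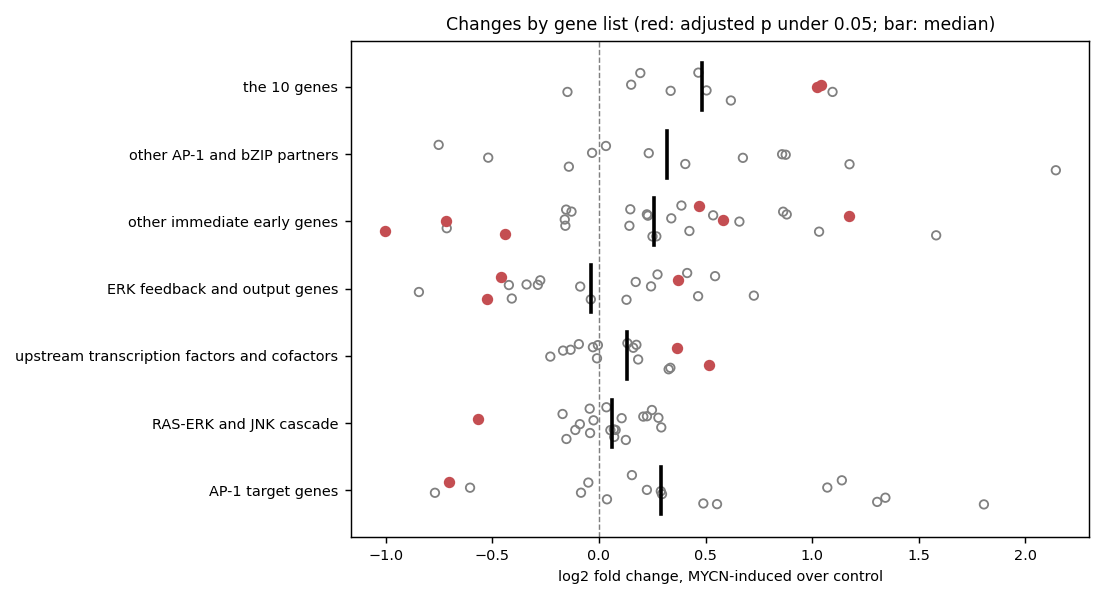
Log2 fold change of every tested gene of the 10 genes and of 6 further lists, MYCN-induced over control, with red points for genes with an adjusted p under 0.05 (edgeR), open points for the others and a black bar for the median of each list. The medians run from -0.04 for the ERK feedback and output genes to 0.49 for the 10 genes, and every list holds points on both sides of 0.

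The gene whose log2 profile was searched for neighbours was JUNB, as the one of the 10 with the largest change. Among 18526 other genes with a mean of at least 1 CPM, the nearest profiles over the 6 libraries, by root-mean-square distance after centring, were those of PKD1P4 (0.22, a pseudogene whose reads can be split with near copies), MT2A (0.23), ENSG00000288634 (0.24), ENSG00000252139 (0.26) and ENSG00000269711 (0.26). MT2A, a metallothionein gene, was at 1.197 (log2 fold change, adjusted p = 0.127, edgeR), and none of these 5 genes passed the test.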

How the data were processed

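Ribosome-depleted total RNA of 6 SK-N-AS cultures was sequenced in read pairs. According to the submitters' processing notes the reads were aligned with STAR 2.7.1a, and the authors deposited estimated counts per gene (GRCh38) from featureCounts, with reads that hit several genes split into fractions, so that 31.9% to 33.4% of the values above 0 per library were not whole. The notes name version 1.5.1 and the study's methods a strand-specific setting, whereas the file header names version 1.6.4 without strand. The header was followed here, and antisense partners are therefore named beside the genes they touch.

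These values were rounded before testing. The 29086 genes that reached 10 counts in 3 or more libraries were scaled by TMM and tested with edgeR 4.0.16 (quasi-likelihood test, R 4.3.3), with Benjamini-Hochberg adjustment over all of them and a threshold of 0.05. CPM served for comparisons within a gene and TPM, from the annotated exon length, for comparisons between genes. Shares and ratios were compared by two-sided exact permutation over libraries. In simulated data with 200 of 28647 genes changed 2-fold between 3 and 3 libraries, the test recovered 78.5% of them with 13 false calls. Replicates of a group differed by more than sampling noise (chi-square per gene 12.1 to 145.6), so each counted as 1 sample. Symbols were matched for 99.6% of the identifiers, and the 92 spike-in sequences had 0 counts. Alternatives were DESeq2 1.42.0, other scalings, filters and thresholds, thinned counts, a replicate block, leaving out each library and, added after seeing the data, a correction for GC content (lowess, span 0.3).

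The 10 genes and all 9 other lists were chosen with earlier results of these data known. Named were all 10 genes, in the other lists the genes past the threshold and the 3 with the highest TPM, the 5 genes nearest in profile to the gene of the 10 with the largest change, and MYCN. Genes named outside this rule, because a family share or a marker check needed them, were FOSL2, EGR4, NR4A2, NR4A3 and the markers. A few genes that this rule would name are not reported here.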

Additional observations from a re-analysis of the deposited data

How the results depend on the processing

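The number of the 10 genes called higher in MYCN-induced cells was 2 and stayed so with library size only, upper-quartile scaling, DESeq2, both count filters, thinned counts, GC correction alone and an adjusted p threshold of 0.1. At a threshold of 0.01 it was 0. Leaving out 1 library gave 0 to 2, with 0 without control replicates 1 or 2 or MYCN-induced replicate 1, 1 without control replicate 3 or MYCN-induced replicate 2, and 2 without MYCN-induced replicate 3. The number called lower was 0 in all of these. The cause of the losses was not tested. With a replicate block the number was 4, adding JUN (adjusted p = 0.0460) and JUNB (adjusted p = 0.0136, edgeR), and with GC correction and the replicate block together, added after seeing the data, it was 5, adding IER2 (adjusted p = 0.0425, edgeR). In the other lists the block lost ZFP36L2 (adjusted p = 0.0515), SIK1 (0.0546), SPRED1 (0.0680) and ELK1 (0.0541, edgeR). Over all tested genes same-numbered libraries deviated together only weakly (correlations -0.02 to 0.22, mean 0.09, against -0.05 for other pairs). Nothing in the labels says that a number marks a shared day or culture, so whether the libraries are paired is not known. The added calls of JUN and JUNB rest on such a pairing. Between same-numbered libraries JUN differed by 0.50, 0.52 and 0.48 (log2) and JUNB by 1.49, 1.14 and 0.90. FOS differed by -0.08, -0.50 and 1.07. Over all genes the block gave 265 higher and 575 lower calls against 298 and 692, DESeq2 904 and 1199, GC correction 573 and 890, and leaving out a library 18 and 72 (without control replicate 2) to 1060 and 1279 (without MYCN-induced replicate 3).

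Reversed without MYCN-induced replicate 3 were FOS (-0.32) and FOSB (-0.41), whose highest values were 0.60 without MYCN-induced replicate 2 for FOS and 0.45 without MYCN-induced replicate 1 for FOSB. The share of JUN in its family differed by 3.26 percentage points, by 2.38 to 4.07 with 1 library left out and by 4.99 with counts not divided by length. The FOSL2 share differed by -1.62 points, by -1.84 to -1.41 with 1 library left out and by 0.032 with counts not divided by length. Precision was limited by 3 libraries a group and, for EGR2, by depth.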

Other observations

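JDP2, an AP-1 partner that represses transcription, and MMP1, a collagenase gene with AP-1 sites in its promoter, are given here although they lie outside the naming rule and were chosen after their values were seen. JDP2 was at 3.29, 3.68 and 3.38 CPM in controls and at 11.1, 5.87 and 28.8 CPM in MYCN-induced libraries, which is 2.14 on the log2 scale (standard error 0.51, adjusted p = 0.0685, edgeR). Without MYCN-induced replicate 3 JDP2 was at 1.298 (adjusted p = 0.0266, edgeR). MMP1 was at 3.53, 3.64 and 3.39 CPM in controls and at 7.47, 6.10 and 23.4 CPM in induced libraries (log2 fold change 1.81, standard error 0.47, adjusted p = 0.0890, edgeR), and at 0.95 without MYCN-induced replicate 3 (adjusted p = 0.00706, edgeR). For both genes every induced library lay above every control and MYCN-induced replicate 3 was the highest, as it was for FOS, FOSB and FOSL1. Neither trait is particular to these genes. Of all tested genes, 11.5% were higher in every induced library than in any control. For 38.7% of them MYCN-induced replicate 3 was the highest induced library.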
